A study of Homo sapiens with 20 samples.

Results

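RPUSD4 knockdown was compared with control cells at every position of the mitochondrial RNAs that carried a signal after CMC treatment. A position was included when its mean level over the 7 libraries of both groups was 1 or more, which left 190 of the 16570 positions listed per library. The level at a position is the authors' deposited score, a difference between the CMC library and untreated RNA, and it is read here as percentage points of altered reads ("points"). The libraries came from K562, an established human leukaemia cell line, and were made from RNA of isolated mitochondria treated with 0.5 M CMC. The control was wildtype K562 carrying a non-targeting sgRNA (4 CMC libraries), and the other group carried the RPUSD4 knockdown (3 CMC libraries). How the knockdown was made, how far RPUSD4 fell and whether it was 1 clone are not given in the sources used here. Only mitochondrial positions were read, so RPUSD4 itself and markers of the cell line were not analysed here. The labels list 2 untreated libraries for the control and a single one for the knockdown. Nothing in the labels says that the libraries of a group came from separate cultures, so the spread between them may be technical.

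Pseudouridine is an isomer of uridine made after transcription by pseudouridine synthases. CMC, a carbodiimide, forms a lasting adduct with pseudouridine, which makes reverse transcriptase stop or misread, so reads are altered at or beside the modified base. RPUSD4 is a pseudouridine synthase of the mitochondrial RNA granule, with reported targets in the 16S rRNA, the RNA core of the large mitochondrial ribosomal subunit, and in the tRNAs for phenylalanine and methionine. It is known to be needed for assembly of that subunit. Mitochondrial DNA is copied into long transcripts from each strand, from which 2 rRNAs, 22 tRNAs and 13 mRNAs are cut.

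The known RPUSD4 position in the 16S rRNA fell in the knockdown, and it was the only position that passed the test. This base is position 3067 of the mitochondrial chromosome in GRCh38 coordinates, within the RNR2 gene (1671 to 3229). The files list positions up to 16571, past the end of the GRCh38 mitochondrial sequence, and their numbering was assumed to be that of GRCh38 with no shift; gene bases, codon positions and matches to known sites rest on this. The level at 3067 was 14.1, 14.9, 13.8 and 15.8 points in the 4 control libraries and 9.25, 10.2 and 9.30 points in the 3 knockdown libraries. Every knockdown library lay below every control library. The means were 14.7 ± 0.911 points (SD, n = 4) and 9.59 ± 0.549 points (SD, n = 3), so the knockdown kept 65.5% of the control level. The difference was -5.06 points (SE 0.941, 95% interval -7.12 to -2.99), with an adjusted p of 0.0455 from limma with Benjamini-Hochberg adjustment over 228 tested positions. That is 1 of the 190 members, against a background of 0.439% of all tested positions called. Without adjustment, 20 tested positions had a p under 0.05, 17 of them members. An exact two-sided permutation test gave 0.0571 at this position, the smallest value that 4 against 3 libraries allow, and 0.571 after Benjamini-Hochberg adjustment over the 10 highest members.

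The call at 3067 lay close to its threshold. Leaving out 6 of the 7 libraries in turn ended it, with adjusted p-values of 0.0588 to 0.183 in limma, and without control replicate 1 it was 0.0476. A fit of these 7 libraries alone, which estimates the spread without the other groups of the series, gave an SE of 5.82 and an adjusted p of 0.751 in limma. That SE also draws on the spread at the other tested positions. The libraries' own SDs at 3067 were 0.911 points in the control and 0.549 points in the knockdown. The direction was lower under all 23 alternatives, which adds little. Leaving out a library cannot reverse it where the groups do not overlap, and changing the tested positions leaves the difference as it is.

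**Figure D1:**
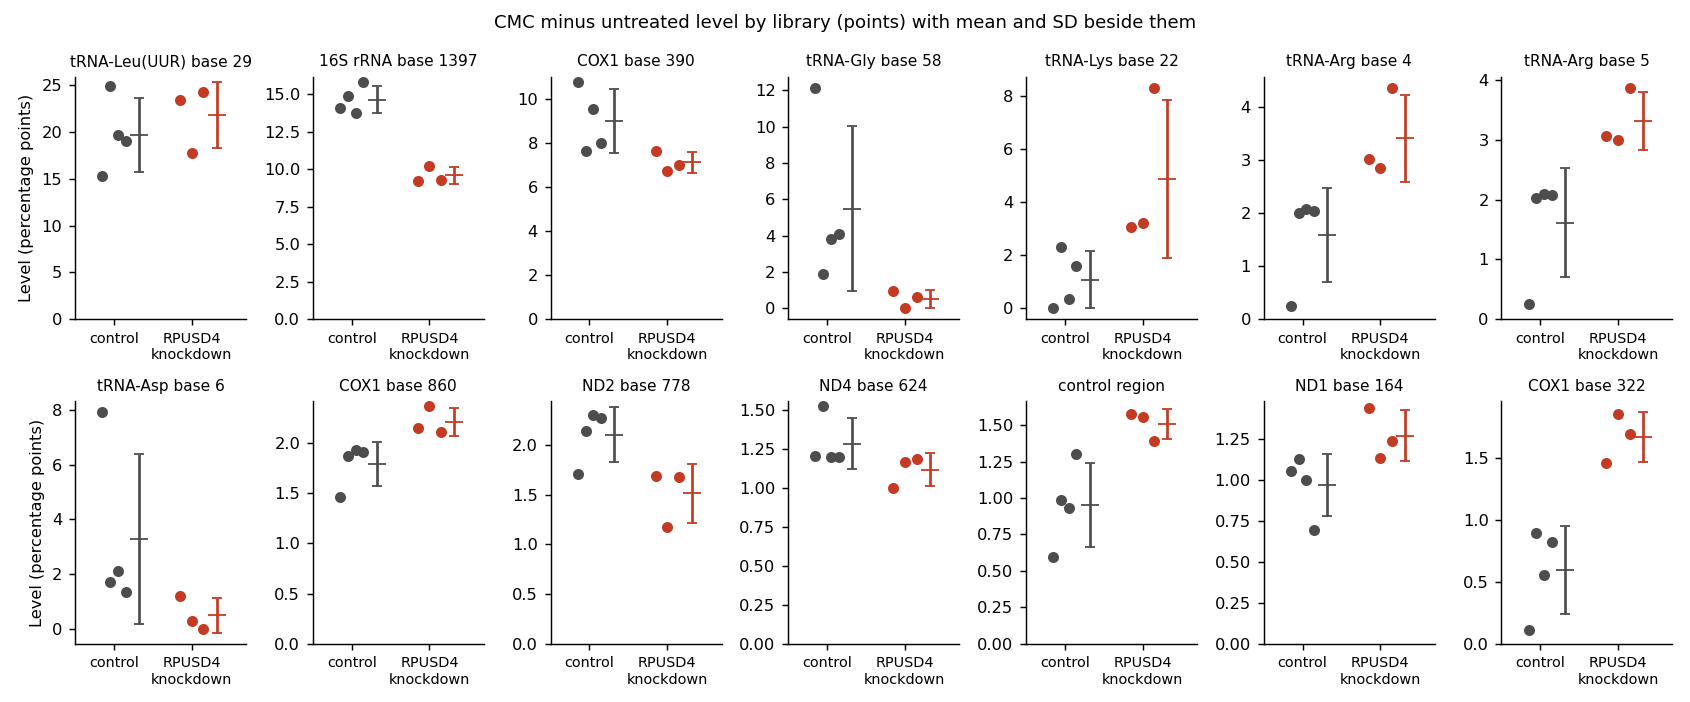
Levels in percentage points (vertical axes, each on its own scale) in the 4 control libraries (grey) and the 3 RPUSD4 knockdown libraries (red) at the 3 highest members and at the other members whose groups do not overlap, with the mean and SD beside the points. At the 16S rRNA position the knockdown libraries sit between 9.25 and 10.2 points and the control libraries between 13.8 and 15.8 points.

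The bases before the 16S position carried a smaller signal of the same kind. The base 2 before it, 3065, averaged 0.851 points in the control and 0.454 points in the knockdown, with no overlap between the groups. The base just before it averaged 0.823 and 0.501 points, and there the groups overlapped. Summed over the 5 bases before the position, the control libraries held 3.17, 1.91, 2.16 and 2.74 points and the knockdown libraries 1.92, 1.24 and 1.41 points. The knockdown sums were the lower on average, at 1.52 ± 0.352 points (SD, n = 3) against 2.50 ± 0.570 points (SD, n = 4), but 1 knockdown library exceeded the lowest control by a narrow margin. The 5 bases after the position summed to 0.297 points in the control and 0.284 points in the knockdown. The signal therefore lay at the base itself and before it in both groups. None of these neighbours reached the level of 1 that made a member.

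**Figure D2:**
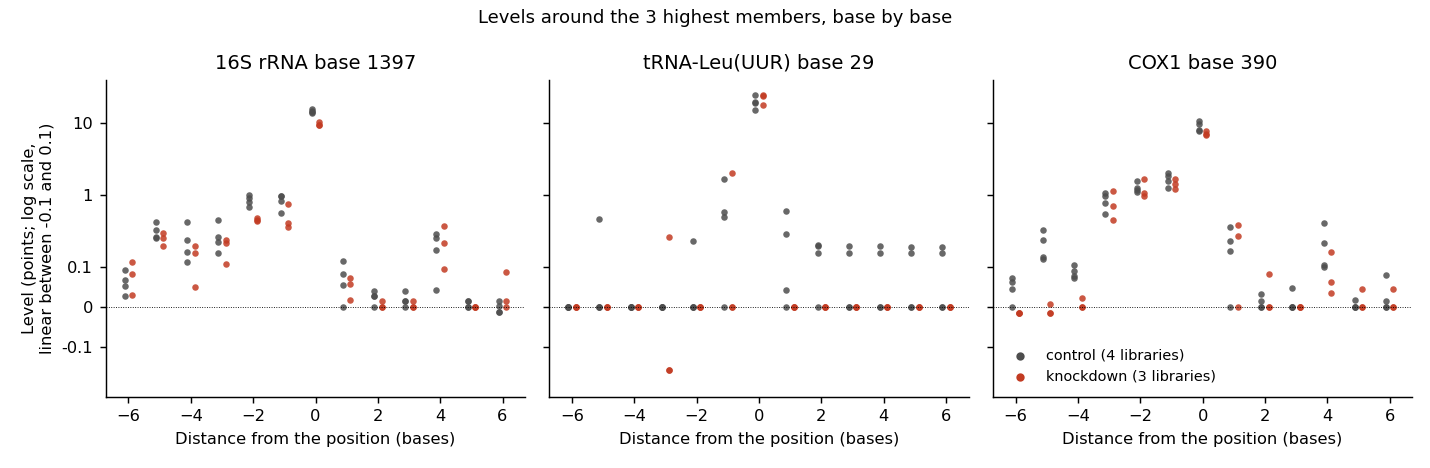
Levels (vertical axis, log scale that is linear between -0.1 and 0.1 points) at the 6 bases on either side of the 3 highest members, by distance in bases, with 1 point per library. Around the 16S rRNA and COX1 positions the bases before the peak carried more signal than those after it, and at the 16S peak the knockdown libraries (red) sit below the controls (grey).

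At the other high members the groups overlapped. The highest member lay in TRNL1, the tRNA for leucine (UUR), at position 3258, which corresponds to conventional tRNA position 27, a known target of the pseudouridine synthase PUS1. It stood at 15.3, 24.8, 19.7 and 19.0 points in the control and at 23.4, 17.7 and 24.2 points in the knockdown. The knockdown libraries lay inside the range of the controls, and the difference was 2.10 points (SE 2.51, 95% interval -3.40 to 7.61), with an adjusted p of 0.788 (limma, Benjamini-Hochberg). The third highest was base 390 of COX1, position 6293, the last base of codon 130 in the mRNA of a cytochrome c oxidase subunit. It stood at 10.8, 7.65, 9.56 and 8.01 points in the control and at 7.66, 6.72 and 6.98 points in the knockdown. The knockdown mean was 7.12 ± 0.488 points (SD, n = 3) against 9.0 ± 1.45 points (SD, n = 4), and the ranges overlapped only between 7.65 and 7.66 points. The difference of -1.88 points had an SE of 3.84 in the shared fit and an adjusted p of 0.913, so a fall of the size seen at 3067 lies within its 95% interval (-10.30 to 6.54). These 3 were the only members with a mean of 5 or more.

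**Figure D3:**
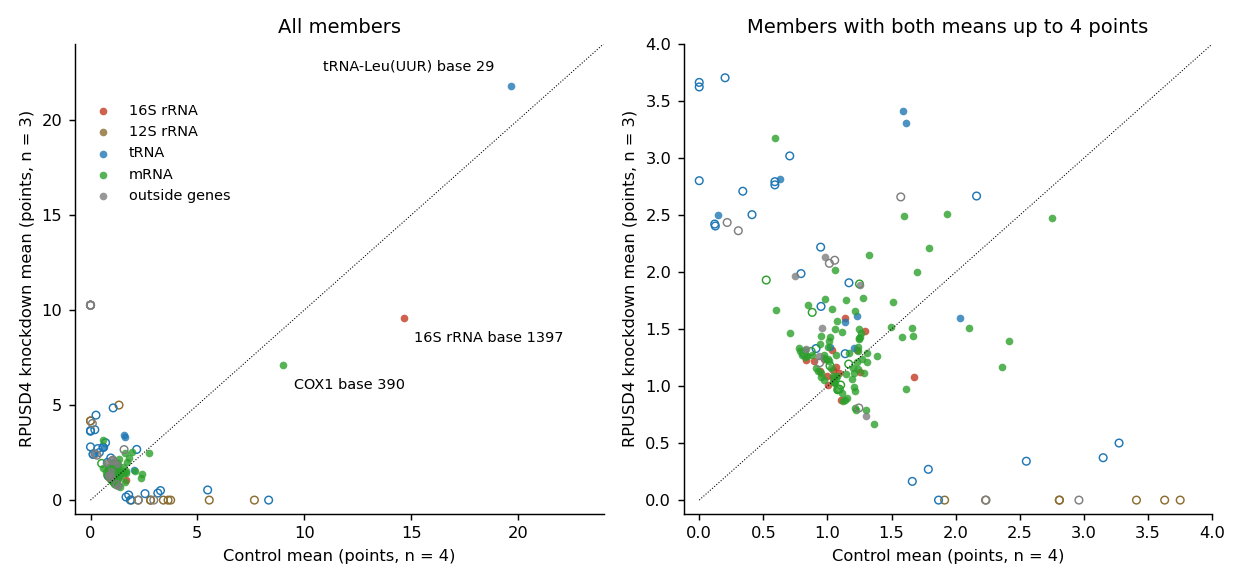
Mean level in the control (horizontal axis, n = 4) against the mean in the RPUSD4 knockdown (vertical axis, n = 3), in points, for all 190 members (left) and for the 171 with both means up to 4 points (right). Filled points have no library at 0, open points have 1 or more, and the dotted line marks equal means. The 16S rRNA position lies below the line at 14.7 and 9.59 points.

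Set against another position of the same library, the 16S level was again the lower in the knockdown, by an amount that depended on the position used. Divided by the tRNA-Leu(UUR) level, it was 0.924, 0.601, 0.701 and 0.831 in the control and 0.395, 0.576 and 0.384 in the knockdown, with no overlap. Divided by the COX1 level, it was 1.31, 1.95, 1.44 and 1.98 in the control and 1.21, 1.52 and 1.33 in the knockdown, and these overlapped. Those ratios put the knockdown at 59.1% and 81.2% of the control, against 65.5% for the level itself. Divided by the median of the other 16S members, the control libraries lay at 29.1, 12.4, 10.4 and 13.5 and the knockdown libraries at 8.67, 8.85 and 6.90, again with no overlap. These divisions were chosen after the values had been seen, and they carry no test.

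The reported RPUSD4 positions in tRNAs gave no usable level in either group. The base at conventional position 39 of tRNA-Phe (TRNF, position 616) had a value of 0 in every one of the 7 libraries. The base at conventional position 50 of tRNA-Met (TRNM, position 4447) reached 0.0855 and 0.146 points in control replicates 2 and 4, and the other 5 libraries had 0. Depth per position is unknown, and 80.3 to 87.2% of all tRNA positions were listed at 0 in the knockdown libraries, so these values do not bear on whether the knockdown changed those bases.

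Positions reported for the partner enzymes of the same granule were looked up after the values had been seen. TRUB2 and RPUSD3 are pseudouridine synthases with reported targets in the COX1 and COX3 mRNAs, which fall at positions 6600 to 6602 and 9961 to 9963. The COX1 bases stayed between -0.0265 and 0.242 points in all 7 libraries. The COX3 bases reached 1.27, 1.26 and 1.69 points in knockdown replicate 1 and were listed at 0 in the other knockdown libraries. None of the 6 was a member.

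The remaining 17 members of the 16S rRNA showed no fall like that at 3067. They lay between 0.204 and 2.33 points in single libraries, 14 were higher on average in the knockdown and 3 lower, and their differences ran from -0.60 to 0.46 points with a median of 0.10. None passed the test and none separated the groups. Position 1975 had the lowest difference of the 17, with 0.591, 2.25, 1.53 and 2.33 points in the control and 1.09, 1.33 and 0.811 points in the knockdown. Position 2141 had the highest, with 0.292, 1.57, 1.52 and 1.17 points in the control and 1.49, 1.71 and 1.6 points in the knockdown. At both the groups overlapped. The longest run of neighbouring 16S members, 2614 to 2617, ends at base 947 of the rRNA, named here after its values were seen as a known N1-methyladenosine written by TRMT61B. It stood at 0.410, 1.10, 1.32 and 1.04 points in the control and at 1.06, 1.16 and 1.5 points in the knockdown (difference 0.27, SE 0.253, adjusted p 0.702 in limma).

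Control replicate 1 set much of the direction in these low members. Its median over the other 16S members was 0.484 points, against 1.17 to 1.32 in the other controls and 1.07 to 1.35 in the knockdown libraries, while its level at 3067 lay within the range of the other controls. Among the 124 members with no library at 0, it was the lowest of the 4 controls at 91. Without it, 8 of the 17 other 16S members were higher in the knockdown and 9 lower, and the difference at 3067 was -5.24 points. This library listed 58.9% of all positions at 0, against 32.4 to 34.2% in the other controls and 46.01 to 60.9% in the knockdown libraries. The part of depth in this was not tested.

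**Figure D4:**
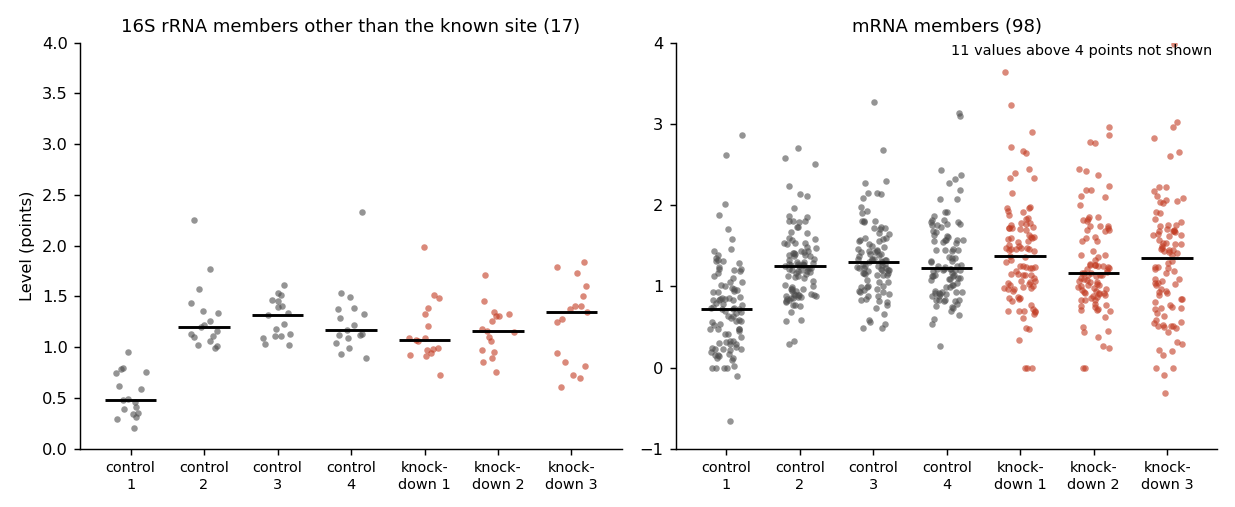
Level in points (vertical axis) of the 17 other 16S rRNA members (left) and the 98 mRNA members (right) in each control (grey) and knockdown (red) library, with the median as a bar; 11 mRNA values above 4 points are not shown. Control replicate 1 has the lowest median in both, at 0.484 and 0.722 points.

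Across all 190 members, 127 were higher in the knockdown and 63 lower, with a median difference of 0.23 points. Over all 228 tested positions 138 were higher and 75 lower, with a median of 0.16, which is 60.5% higher against 66.8% among the members. Without control replicate 1 the members split into 107 and 79, with a median of 0.06. With group medians in place of means they split into 89 and 82. The size of the difference was under 0.5 points at 103 members and 2 or more at 45, but only 5 of those 45 had no library at 0. In 48 members a single library held over 50% of the summed level. The 190 positions fell into 144 separate runs, since 84 members had a neighbouring member, and neighbours may share reads.

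Members whose groups did not overlap were few. Every knockdown library lay above every control at 7 members and below at 5, where the background over all tested positions was 3.07% and 2.19%. All 7 and all 5 of the tested positions so counted were members. Without control replicate 1 the counts among members were 10 and 13. Groups of 3 against 3 libraries separate more easily, and no background was counted for them. Of the 12 members that separated with all 7 libraries, limma called position 3067 alone.

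**Figure D5:**
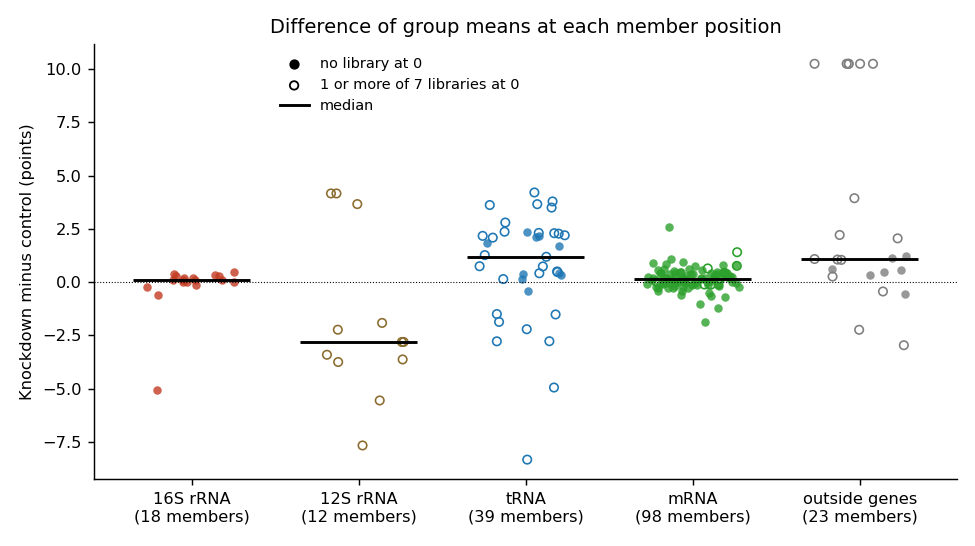
Knockdown minus control in points (vertical axis) for each member, by RNA class, with the class median as a bar, filled points for members with no library at 0 and open points for the rest. The 16S rRNA position at -5.06 is the only filled point beyond -2, while the 12S rRNA points are all open.

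Transfer RNAs held 39 members in 17 of the 22 tRNA genes, 30 higher in the knockdown and 9 lower, with a median difference of 1.19 points. Of these, 29 had at least 1 library at 0, and control replicate 1 listed 92.7% of all tRNA positions at 0. Without this replicate the members split into 28 higher and 10 lower, with a median difference of 0.93 points. In 19 of the 39 members a single library held over 50% of the summed level, and in 12 of these 19 it was a knockdown library. The 26 members in heavy-strand tRNAs split into 18 higher and 8 lower, and the 13 in light-strand tRNAs into 12 and 1. None passed the test.

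Bases 4 and 5 of tRNA-Arg (TRNR, positions 10408 and 10409) were among the tRNA members that separated the groups. Position 10408 stood at 0.249, 2.0, 2.07 and 2.04 points in the control and at 3.02, 2.85 and 4.36 points in the knockdown. Position 10409 stood at 0.249, 2.03, 2.09 and 2.07 points in the control and at 3.06, 2.99 and 3.86 points in the knockdown. Control replicates 2, 3 and 4 lay close together and control replicate 1 far below them. All knockdown libraries were above all controls, which leaving out this lowest control cannot change. The differences were 1.82 (SE 0.590) and 1.69 points (SE 0.557), both with an adjusted p of 0.436 in limma. Neighbouring bases may share reads, so the pair is not independent.

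Base 22 of tRNA-Lys (TRNK, position 8316) stood at 0, 2.31, 0.341 and 1.6 points in the control and at 3.06, 3.22 and 8.28 points in the knockdown. All knockdown libraries were above the controls, with the mean set mainly by replicate 3, and the difference was 3.79 points (SE 1.25, adjusted p 0.436 in limma).

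In the other direction, base 58 of tRNA-Gly (TRNG, position 10048) stood at 12.1, 1.87, 3.83 and 4.10 points in the control and at 0.980, 0 and 0.621 points in the knockdown. The knockdown libraries were all below the controls, which themselves spread widely, and the difference was -4.95 points (SE 2.19, adjusted p 0.475 in limma). Base 6 of tRNA-Asp (TRND, position 7523) stood at 7.89, 1.71, 2.14 and 1.35 points in the control and at 1.20, 0.297 and 0 points in the knockdown. Its difference of -2.77 points (SE 2.04) had an adjusted p of 0.608. At both bases control replicate 1 was the highest control. The 3 tRNA-Gly members were all lower in the knockdown, but in each of them control replicate 1 held over 50% of the summed level. Positions 10048 and 10049 among them were neighbouring bases.

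Several of the largest tRNA values came from 1 library. Base 12 of tRNA-Phe (position 588) was 33.3 points in control replicate 1, the highest value of all, and listed at 0 in the other 6 libraries. Bases 27 to 29 of tRNA-Val (TRNV, positions 1628 to 1630) were 10.9 to 11.1 points in knockdown replicate 3 and at 0.806 or 0 elsewhere. Base 1 of tRNA-Asn (TRNN, position 5729) was 6.02 and 7.39 points in knockdown replicates 1 and 2 but listed at 0 in replicate 3.

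Messenger RNAs held 98 members, in all 13 mRNA genes, with 61 higher in the knockdown, 37 lower and a median difference of 0.16 points. Without control replicate 1 they split evenly, 49 and 49. None passed the test. The 46 members in mRNAs of complex I, the NADH dehydrogenase, split into 33 higher and 13 lower, and the 34 in cytochrome c oxidase mRNAs (complex IV) into 19 and 15. The 8 in ATP synthase mRNAs (complex V) split into 7 and 1. CYTB, the complex III subunit encoded by mitochondrial DNA, went the other way with 2 higher and 8 lower. Its median difference was -0.15 points and no member was called. Members fell on all codon positions, 35 on the first, 36 on the second and 27 on the third.

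Among mRNA members, base 322 of COX1 (position 6225) had the largest separation between the groups. It stood at 0.113, 0.892, 0.558 and 0.817 points in the control and at 1.46, 1.85 and 1.7 points in the knockdown. The difference was 1.07 points (SE 0.359, adjusted p 0.436 in limma). Further along, base 860 of COX1 (position 6763) stood at 1.46, 1.87, 1.93 and 1.91 points in the control and at 2.15, 2.37 and 2.11 points in the knockdown. It was higher by 0.42 points (SE 0.311, adjusted p 0.608). Base 164 of ND1 (position 3470) stood at 1.06, 1.13, 1.0 and 0.698 points in the control and at 1.44, 1.14 and 1.24 points in the knockdown, where the lowest knockdown and the highest control library nearly met.

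Base 778 of ND2 (position 5247), an mRNA for a complex I subunit, stood at 1.71, 2.14, 2.30 and 2.27 points in the control and at 1.69, 1.17 and 1.68 points in the knockdown. The knockdown libraries were below every control, narrowly at the nearest pair, and the difference was -0.59 points (SE 0.514, adjusted p 0.662 in limma). Base 624 of ND4 (position 11383) stood at 1.21, 1.53, 1.20 and 1.20 points in the control and at 0.996, 1.17 and 1.18 points in the knockdown. The separation of -0.17 points was about the size of the control SD of 0.163. The largest mRNA difference of all, 2.59 points at position 4548 in ND2, rested on knockdown replicates 1 and 2 (3.64 and 6.19 points) while replicate 3 stood at -0.314 points.

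The 12S rRNA, the core of the small ribosomal subunit and not a reported RPUSD4 target, could not be compared. Between 97.3 and 99.8% of its positions were listed at 0 in each library. All 12 of its members had a library at 0 and a single library with over 50% of the sum. Positions 1334 and 1335, for example, were both 22.2 points in control replicate 1, and 834 and 835 were both 12.5 points in knockdown replicate 2. The 3 higher and 9 lower members, with a median difference of -2.81 points, each rested mainly on 1 high library.

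Outside the genes lay 23 members, 21 of them in the control region, which holds the promoters and an origin of replication. Of all 23, 19 were higher in the knockdown and 4 lower, with 16 having a library at 0. Without control replicate 1 the split was the same, 19 and 4. Over all 33 tested positions outside genes, 20 were higher and 10 lower. The 12 of these 33 with no library at 0 split into 6 and 6. In 13 of the 23 members a single library held most of the summed level, and in 11 of these 13 it was a knockdown library. Positions 459 to 464 were each 30.8 points in knockdown replicate 2 and listed at 0 in the other 6 libraries, so this run of 6 supplied the largest positive differences (10.3 points) from 1 library. Position 176 was the 1 member outside genes that separated the groups, at 0.595, 0.987, 0.933 and 1.30 points in the control and 1.58, 1.56 and 1.39 points in the knockdown. The difference there was 0.55 points (SE 0.207, adjusted p 0.475 in limma).

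The other CMC libraries of the series, 4 of an NME6 knockout and 3 of that knockout with NME6 restored (rescue), were set beside the 12 members whose groups did not overlap, with no test of the difference. At the 16S position the knockdown libraries lay below all 7, which ran from 13.3 to 17.5 points in the knockout and from 22.1 to 23.3 points in the rescue. The knockout range there took in the control range (13.8 to 15.8 points), but the rescue lay wholly above the control. The knockdown libraries lay above all 7 at 176 and at both tRNA-Arg bases, where the highest of the 7 reached 0.981, 1.5 and 1.54 points. At base 624 of ND4 they also lay above all 7, whose highest was 0.954 points, so there the knockdown stood between the control and the NME6 libraries.

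At the remaining 7 of these members the NME6 libraries did not all fall on one side of the knockdown. At base 6 of tRNA-Asp the rescue (0.465 to 0.966 points) lay inside the knockdown range and the knockout ran from 1.09 to 9.52 points. At base 58 of tRNA-Gly the knockout ran from 0 to 5.91 points and the rescue from 0.168 to 2.44 points. At base 22 of tRNA-Lys all knockout libraries were at or below 0.294 points, but the rescue ran from 0.224 to 3.92 points. At base 322 of COX1, 2 knockout libraries lay inside the knockdown range and the other 5 libraries below it. At base 860 of COX1 the knockout (2.04 to 2.78 points) spanned the knockdown range and the rescue (0.431 to 0.549 points) lay below it. The knockout also spanned it at base 164 of ND1 (1.01 to 2.15 points) and at base 778 of ND2 (0.862 to 2.96 points).

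The limit of 1 for a member cut through a continuous range of levels. The 3 members just inside it were 8443 in ATP8 (mean 1.001), 2142 in the 16S rRNA (1.002) and 2599 in the 16S rRNA (1.005), and the 3 positions just outside were 10650 in ND4L (0.999), 4998 in ND2 (0.998) and 13538 in ND5 (0.998).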

How the data were processed

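The authors deposited, for each CMC library, a signed score at every position of the mitochondrial chromosome; per the file headers it is a difference. Neither its unit nor read depth or bases are in these files, and reading it as percentage points of altered reads was inferred from the values. The submitters' processing notes name Trimmomatic, STAR, SAMtools, GRCh38 and hg38; the sources used here do not state how alterations were called. Identical negative values (within 1e-09, at 70 to 512 positions) occurred in all 9 within-group pairs of these libraries and in 0 of 12 between-group pairs. Each group thus appears to have had 1 untreated profile subtracted, through which groups can also differ. The 6 untreated samples entered only in this way. No counting interval could be given without depth.

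Positions were assigned to 37 RefSeq genes of GRCh38, and the RPUSD4 site in 16S rRNA was placed from its published base, 1397. The fit used limma 3.58.1 (R 4.3.3; empirical Bayes with a trend) on the scores as given, with all 14 CMC libraries in 4 groups sharing the spread. A position was tested when its mean reached 1 over the 14 libraries or over these 7, which gave 228. P-values were two-sided, with Benjamini-Hochberg adjustment and a threshold of 0.05. The fit was tested on simulated data. Permutation tests used scipy 1.17.1; other tools were matplotlib 3.10.9, pandas 2.3.3, numpy 2.4.6 and Python 3.11.15.

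Named were the reported RPUSD4 positions, those called, the 10 highest members, members whose groups do not overlap, the 5 largest differences each way, the highest of each class, their neighbours in a run, and those just around the limit of 1. Positions 834, 835, 1628 to 1630, 1975, 2141, 2614 to 2617, 3065, 4548, 5729 and the TRUB2 and RPUSD3 targets were named after their values were seen. Members, lists and rules were chosen with earlier results of these data known.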

Additional observations from a re-analysis of the deposited data

Results flagged for a closer look

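Of 31 named positions tested by Dixon's rule for an outlying control library, 10 had 1 control library far from the other 3. The rule's rate of about 1 in 20 holds for unselected, independent values. Many of these positions were named for their values, and some held a single high library, so the count cannot be set against that rate. In 9 of the 10 this was control replicate 1. It was high at 588 in TRNF (33.3 points), at 1334 in RNR1 (22.2 points) and at 7522 and 7523 in TRND (7.89 points each). It was low at 2599 in RNR2 (0.315 points), at 6762 and 6763 in COX1 (1.32 and 1.46 points) and at 10408 and 10409 in TRNR (0.249 points each). The other was control replicate 2, high at 11383 in ND4 (1.53 points). Neighbouring positions were not independent.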

How the results depend on the processing

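At position 3067 the call held in 10 of 23 alternatives, with adjusted p-values from 0.00566 to 0.751 in limma. The difference was -5.06 with positions of mean 0.5 or more, of median 1 or more or with no value of 0, and in the fit of these 7 libraries alone, each of which lost the call; it was -5.56 with scaled libraries and -5.37 with library weights, which lost it too. Leaving out 1 library gave -5.37 to -4.67. The number of positions called went from 1 to 0 under each of these (0 of 1138 tested at mean 0.5 or more, 106 with an unadjusted p under 0.05). It was 0 to 2 without 1 library and 4 without replicates 1 of the control and NME6 knockout. The 2 called without control replicate 1 were lower in the knockdown, as were these 4. Without knockdown replicate 1 the 2 called were higher, as were the 2 without knockdown replicate 3, and 3067 was not among them. With no level filter 36 positions were called, 19 higher and 17 lower, of which 24 had identical values within a group and 35 a mean under 1; a single one was a member.

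Same-numbered libraries showed no clear positive correlation of deviations (-0.217, 0.009 and -0.138). These correlations cannot show whether same-numbered libraries were handled together. With the replicate number as a block, 0 positions were called (19 with an unadjusted p under 0.05), and 3067 was at -5.17 with an adjusted p of 0.167.

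Members higher in the knockdown numbered 598 of 1008 at mean 0.5 or more, 15 of 25 at 2 or more, 79 of 134 by the median and 84 of 124 with no library at 0. Of 700 alternatives at the 33 other named positions, 0 passed the threshold. Signs changed at 4998, from 0.15 to -0.028 (without control replicate 1, alone or with NME6 knockout replicate 1) and -0.0046 (without knockdown replicate 1; the highest without 1 library was 0.29), and at 6291 in COX1, from -0.04 to 0.062, 0.057 and 0.095 (without control replicate 4, knockdown replicate 1 or 2) and 0.041 with the block (the lowest without 1 library was -0.26). The difference became 0 at positions 459 to 464, 588 and 1334 once their single high library was left out. Except where fewer samples or other tested positions were used, the cause was not tested.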

Other observations

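At some positions the mean over the 7 libraries was -1 or less, so they were not members. Base 1437 of the 16S rRNA, position 3107, stood at -0.108, -6.29, -5.50 and -5.28 points in the control and at -1.79, -1.68 and -2.27 points in the knockdown, so control replicate 1 again lay apart from the other controls. Position 3107 is known as the placeholder of the reference sequence, kept so that its numbering holds. In the control region, position 309 stood at -6.57, 11.8, 11.4 and 12.2 points in the control and at -4.98, -11.5 and -24.8 points in the knockdown, and position 307 at -9.44, 4.54, 4.16 and 6.25 against -5.29, -7.77 and -15.1 points. There control replicate 1 was on the side of the knockdown libraries and the other controls were positive. Both positions were among the 228 tested, with differences of -20.98 (SE 6.96) at 309 and -10.78 (SE 5.86) at 307 and adjusted p-values of 0.436 and 0.475 in limma. In the 12S rRNA, positions 1008 and 1009 were listed at -2.99 points in all 4 control libraries and at 0 in all 3 knockdown libraries, and 709 at -5.17 points in all 3 knockdown libraries. Positions 709, 1008, 1009 and 3107 were not tested.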
